A study of Mus musculus with 8 samples.

Results

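The genes described here are the mitochondrial ribosomal protein genes of the mouse, the Mrpl and Mrps genes. They were taken by symbol, as every gene called Mrpl or Mrps plus a number that had at least 50 counts summed over the 8 libraries, with pseudogenes left out, which gave 76 of the 52997 gene symbols counted. Of these, 49 encode proteins of the large subunit, 26 encode proteins of the small subunit, and Mrps36 carries a ribosomal name but encodes a protein now assigned to the 2-oxoglutarate dehydrogenase complex. The symbols just under the count minimum were Mrpl53 with 6 counts and Mrpl23 with 44, and those just above it were Mrps36 with 79 and Mrps33 with 112. All 76 genes also passed the filter on low counts that left 11490 genes for testing.

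The cells were CD4+ T cells sorted from the livers of C57BL/6 mice that lacked Aire, the thymic regulator of self-antigen expression, and carried a Foxp3-GFP reporter. All of them were TCRb+ and negative for the Foxp3 reporter, a gate meant to leave out regulatory T cells. The 4 groups, with 2 libraries each, were PD-1- cells of 5-day-old mice (replicates 2 and 3), PD-1+ cells of 5-day-old mice (replicates 2 and 3), PD-1- cells of 10-day-old mice (replicates 1 and 2) and PD-1+ cells of 10-day-old mice (replicates 1 and 2). PD-1 is the inhibitory receptor encoded by Pdcd1. Each library was made from 1000 cells sorted in succession, every mouse was Aire-deficient, and Aire-sufficient cells were not analysed here. The labels do not tie libraries to separate animals, so p-values measure the spread between these libraries only, part of which may be technical.

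Mitochondrial ribosomes sit in the mitochondrial matrix and translate the few messenger RNAs made from the mitochondrial genome, all of which encode subunits of the respiratory chain and ATP synthase. Their RNA comes from the mitochondrial genome, whereas all of their proteins are encoded in the nucleus, made in the cytosol and imported. Many of the proteins have a counterpart in bacterial ribosomes, and the rest were added in the mitochondrial lineage. In T cells, activation is accompanied by growth of the mitochondrial network, and mitochondrial translation is needed for the respiratory chain that supports proliferation and cytokine production.

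Library totals were 1473216 to 3019551 counts. Pdcd1 had 1 to 5 counts in the PD-1- libraries and 564 to 1953 in the PD-1+ libraries, the direction of the sort, while Aire had 0 to 2 counts everywhere and cannot test the genotype. Foxp3 transcript was at 10 to 32 counts in the PD-1- and 0 to 2 in the PD-1+ libraries, and was called lower with PD-1 (log2 fold change -4.04 ± 0.72, edgeR adjusted p = 0.000404). Among markers of the sorted cells, all 8 of a list of T cell genes were detected in every library (0.554 to 0.952% of counts). The 8 hepatocyte markers together reached 10.8 to 20.4 CPM (counts scaled to library size with TMM factors) in PD-1- and 28.6 to 79.3 CPM in PD-1+ libraries, and the 8 erythroid markers 11.1 to 29.8 and 2.81 to 5.34 CPM. In 3 of the 4 PD-1- libraries most of the erythroid sum was Gata1, a transcription factor of several blood lineages (a mean of 15.97 CPM in PD-1- and 1.15 in PD-1+ libraries), while Hbb-bs was even (1.22 and 1.18 CPM). Of the CD8 chains, Cd8b1 was lower in PD-1+ cells (35.1 and 9.49 CPM, edgeR adjusted p = 0.00134), and Cd8a was not called (2.98 and 5.85 CPM). Albumin was at 0 counts in 1 PD-1- library, and Hba-a2 was at 0 counts in every library but 1. Sums of macrophage markers (31.1 to 78.4 CPM in PD-1- and 39.6 to 53.4 in PD-1+ libraries) and B cell markers (12.6 to 77.2 and 24.6 to 48.2) overlapped between the populations. So did those of dendritic cell markers (19.8 to 47.1 and 24.2 to 52.0) and neutrophil markers (0.568 to 2.59 and 2.06 to 4.77). The hepatocyte and erythroid sums and Cd8b1 differed with PD-1 in the same libraries as the genes below. The part of any of these cells in the results was not tested. Both 5-day libraries numbered 3 had 601 and 672 counts from 4 Y-linked genes and at most 5 of Xist, while the other 6 libraries had 0 and 698 to 1842, so age was partly mixed with sex.

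The 76 genes lie on 17 chromosomes and were expressed at modest levels. A gene had a median of 702 counts over the 8 libraries, and its count in 1 library ranged from 3 to 440. Per kilobase of exon, Mrpl18, a large-subunit protein of the 5S rRNA-binding family, had the highest mean level, 87.3 ± 37.1 RPKM (SD, n = 8 libraries), followed by Mrpl9 at 44.7 ± 8.63, Mrps23 at 41.7 ± 8.09, Mrpl36 at 41.2 ± 12.8 and Mrpl28 at 37.6 ± 14.8 RPKM. Mrpl18 stood above the other 4 in mean level, and the spreads of those 4 overlapped. The lowest mean levels were those of Mrps10 (2.76 ± 1.34 RPKM), Mrps36 (3.30 ± 1.14) and Mrpl48 (3.35 ± 0.70), and the median gene was at 14.1 RPKM. These lengths are the union of all annotated exons in GENCODE M21 (607 to 8631 bases), so a gene with rarely used long exons has a low value on this scale.

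Over both ages, PD-1+ cells had more mitochondrial ribosomal protein mRNA than PD-1- cells. Of the 76 genes, 31 were higher and 2 were lower in PD-1+ cells, and 43 were not called. Among all 11490 genes tested, 21.9% were higher and 19.6% lower. The median log2 fold change of the 76 genes was 0.52, against -0.01 over all genes tested, and 65 of the 76 had a positive value. The calls are from edgeR's quasi-likelihood test with age in the model, at a Benjamini-Hochberg adjusted p under 0.05 over all genes tested, on 4 libraries per population. Scaling by library totals alone moved the median of all genes to -0.17 and that of the 76 genes to 0.36, with 20 genes then called higher. In bulk samples, fewer cells of a type and less RNA per cell cannot be told apart.

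**Figure D1:**
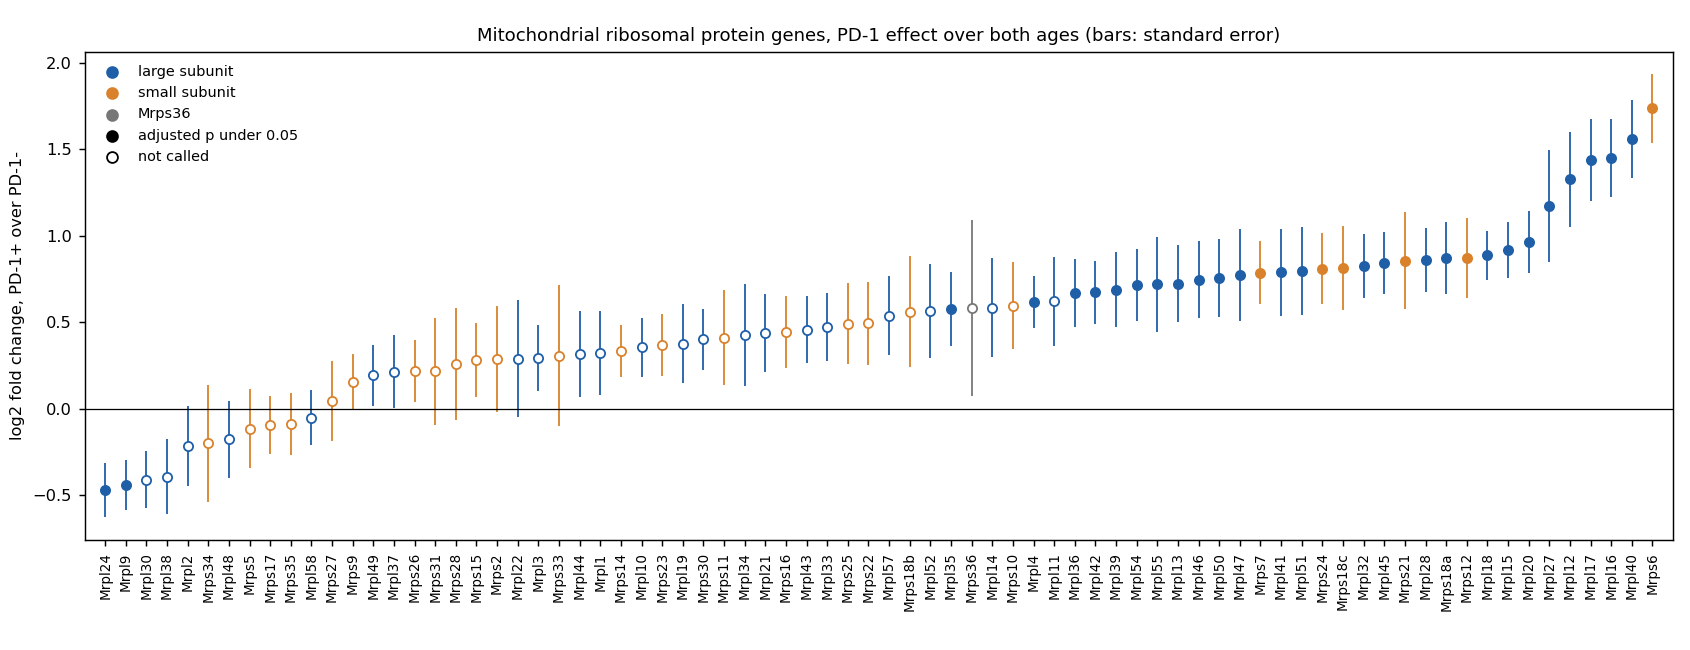
Log2 fold change of PD-1+ over PD-1- cells over both ages (y axis) for each of the 76 genes (x axis, in order of size), with bars of 1 standard error. Blue marks the large subunit, orange the small subunit and grey Mrps36, and filled points are the 33 genes past the threshold. Most points lie above 0, Mrps6 is highest at 1.74 and Mrpl24 lowest at -0.47.

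The size of the difference reached 2-fold or more in 6 of the 31 genes. Mrps6, the small-subunit counterpart of bacterial S6 (ENSMUSG00000039680.10, chr16:92058270-92112227, plus strand, GRCm38), had the largest. It measured 14.9 and 20.4 CPM in the 5-day PD-1- libraries, 53.5 and 63.5 in the 5-day PD-1+, 20.1 and 20.8 in the 10-day PD-1- and 73.7 and 61.8 in the 10-day PD-1+ libraries. All 4 PD-1+ libraries were above all 4 PD-1- libraries, and the 2 ages were alike. The log2 fold change was 1.74 ± 0.20 (SE, edgeR adjusted p = 7.12e-06). Mrps6 shares 159 exon bases on the same strand with Slc5a3, a myo-inositol transporter gene inside it, whose own PD-1 difference was -0.31 at 5 days (not called) and 0.89 ± 0.21 at 10 days (edgeR adjusted p = 0.00547, called higher). Over both ages Slc5a3 was at 0.30 and was called only without 5-day PD-1+ replicate 2. At 10 days the part of shared reads in the value of Mrps6 was not tested.

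Mrpl40, a large-subunit protein with no bacterial counterpart (chr16:18872018-18876862, minus strand), was even across the PD-1- libraries. It measured 25.3 and 24.98 CPM in the 5-day and 26.2 and 26.02 CPM in the 10-day PD-1- libraries. In PD-1+ cells it was at 117 and 88.3 CPM at 5 days and 64.1 and 46.4 CPM at 10 days. The populations did not overlap, and within PD-1+ cells both 10-day libraries were below both 5-day libraries (log2 fold change for PD-1 1.56 ± 0.23, edgeR adjusted p = 7.37e-05).

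Mrpl16 and Mrpl17, counterparts of bacterial L16 and L17, were next. Mrpl16 (chr19:11770391-11774960, plus strand) measured 22.4 and 14.2 CPM in 5-day PD-1-, 53.5 and 42.0 in 5-day PD-1+, 12.3 and 12.4 in 10-day PD-1- and 38.5 and 34.1 in 10-day PD-1+ libraries. Mrpl17 (chr7:105803206-105811099, minus strand) measured 19.1 and 40.9, 87.0 and 88.3, 16.2 and 23.4, and 46.7 and 47.4 CPM in the same order. In both genes every PD-1+ library exceeded every PD-1- library, with log2 fold changes of 1.45 ± 0.23 and 1.44 ± 0.24. The edgeR adjusted p-values were 0.000142 and 0.000214.

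Mrpl12 is the stalk protein of the large subunit, where translation factors bind, and has also been described as a partner of the mitochondrial RNA polymerase. It (chr11:120484613-120489065, plus strand) had 25.9 and 26.1 CPM in the 5-day PD-1- libraries, 121 and 82.6 in 5-day PD-1+, 20.7 and 32.5 in 10-day PD-1- and 41.7 and 40.1 in 10-day PD-1+ libraries. The PD-1+ libraries were all above the PD-1- libraries, by a wide margin at 5 days and a narrow one at 10 days. Over both ages the log2 fold change was 1.33 ± 0.27 (edgeR adjusted p = 0.00155). Mrpl27, whose bacterial counterpart lies next to the peptidyl transferase centre, completed the genes of 2-fold or more (1.17 ± 0.32, edgeR adjusted p = 0.00911), from low counts of 11 to 62 a library and with overlap between the populations.

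**Figure D2:**
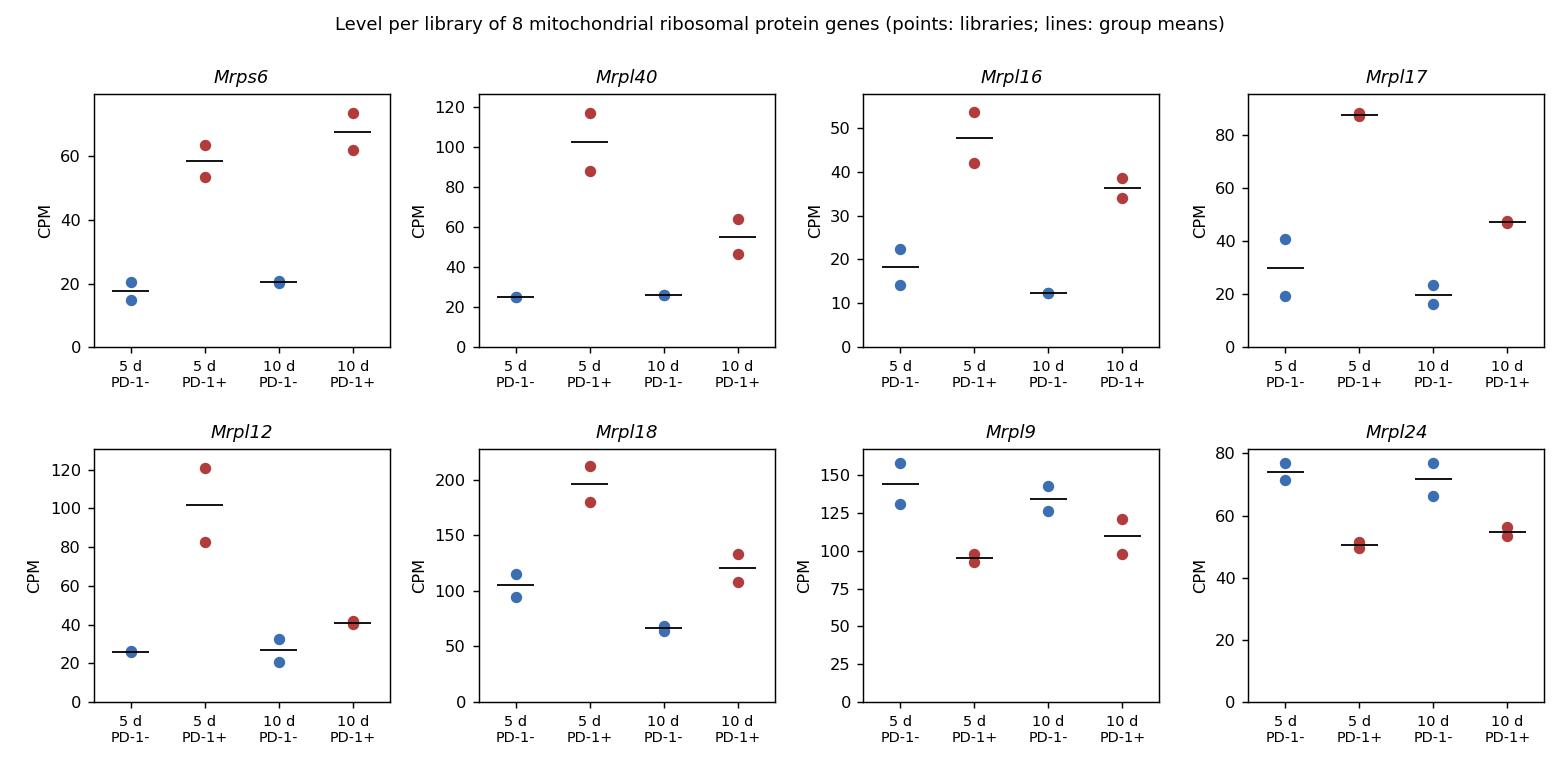
Level in CPM (y axis, from 0) of 8 genes in each library, by age and population (x axis), with blue points for PD-1- and red points for PD-1+ libraries and a line at each group's mean. Mrps6, Mrpl40, Mrpl16, Mrpl17 and Mrpl12 are higher in every PD-1+ than in every PD-1- library, Mrpl18 is higher within each age, and Mrpl9 and Mrpl24 are lower in every PD-1+ library.

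The other genes among the 12 largest differences upward were Mrpl20 (0.97 ± 0.18), Mrpl15 (0.92 ± 0.16), Mrpl18 (0.89 ± 0.14), Mrps12 (0.87 ± 0.23), Mrps18a (0.87 ± 0.21) and Mrpl28 (0.86 ± 0.18), all as log2 fold changes with standard errors. Mrps12 is the counterpart of the bacterial decoding-centre protein S12. Mrpl18, the most abundant of the set per length, measured 94.6 and 115 CPM in 5-day PD-1-, 212 and 180.5 in 5-day PD-1+, 64.1 and 68.3 in 10-day PD-1- and 133 and 108 in 10-day PD-1+ libraries. Within each age its PD-1+ libraries were higher, but 1 of the 10-day PD-1+ libraries was below 1 of the 5-day PD-1- libraries. It shares 141 exon bases on the opposite strand with Tcp1, a chaperonin subunit gene that was itself higher in PD-1+ cells (0.86 ± 0.16, edgeR adjusted p = 0.000558), and the strand setting of the counting is not given in the sources used here. The smallest log2 fold change among the 31 genes was 0.58, that of Mrpl35.

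Only Mrpl9 and Mrpl24 were called lower in PD-1+ cells, and both are large-subunit proteins with a bacterial counterpart. Mrpl9 (chr3:94443318-94451130, plus strand) measured 131 and 158 CPM in 5-day PD-1-, 92.6 and 97.9 in 5-day PD-1+, 142 and 126 in 10-day PD-1- and 121 and 98.0 in 10-day PD-1+ libraries. Mrpl24 (chr3:87919506-87923672, plus strand) measured 76.8 and 71.5, 51.5 and 49.7, 77.1 and 66.3, and 56.3 and 53.4 CPM in the same order. For both genes all PD-1+ libraries were below all PD-1- libraries. The log2 fold changes were -0.44 ± 0.14 and -0.47 ± 0.16 (edgeR adjusted p = 0.0223 and 0.0258), small beside those of the leading genes above. Neither call is firm, since that of Mrpl9 was lost in 6 of 14 alternatives (adjusted p 0.00522 to 0.0844) and that of Mrpl24 in 7 of 14 (0.00657 to 0.123), in which both were lost with no filter and without 5-day PD-1+ replicate 2 or 3, 10-day PD-1- replicate 1 or 10-day PD-1+ replicate 2. The call of Mrpl9 was also lost without 5-day PD-1- replicate 3, and that of Mrpl24 without 5-day PD-1- replicate 2 and with DESeq2. Mrpl24 shares 594 exon bases on the opposite strand with Rrnad1, which is 26.3% of its exon length. Rrnad1 had the same direction, with -0.59 over both ages (edgeR adjusted p = 0.0773, range over the alternatives 0.0276 to 0.302, called in 3 of 14), -0.13 at 5 days and -1.05 ± 0.32 at 10 days (edgeR adjusted p = 0.0191, called lower). The part of shared reads in the value of Mrpl24 was not tested.

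Counted by separation alone, 16 of the 76 genes had all 4 PD-1+ libraries above all 4 PD-1- libraries, and 14 of those 16 were among the 31 called genes. Over all genes tested this share was 17.2%, so the count for these genes was not far from the background. The reverse separation held for Mrpl9 and Mrpl24 alone of the 76 genes, against 17.5% of all genes tested.

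By subunit, the counts are to be read against the 21.9% of all genes tested that were higher and the 19.6% that were lower. In the large subunit 25 of 49 genes were higher and 2 lower, with a median log2 fold change of 0.62. In the small subunit 6 of 26 were higher (Mrps6, Mrps7, Mrps12, Mrps18c, Mrps21 and Mrps24), a share near that of all genes, with a median of 0.35. Within the large subunit, 15 of 29 genes with a bacterial counterpart were higher and 2 lower, and 10 of 20 genes without one were higher. All 6 small-subunit genes called higher have a bacterial counterpart, from 16 such genes. The 10 small-subunit genes without a counterpart were Mrps18b, Mrps22, Mrps23, Mrps25, Mrps26, Mrps27, Mrps31, Mrps33, Mrps34 and Mrps35. Over both ages 0 of them were called by edgeR, 0 had an unadjusted p under 0.05 and 0 were called by DESeq2, and their median was 0.26. At 5 days edgeR called 2 of the 10 higher, Mrps18b and Mrps25, against 17.6% of all genes tested. There 3 had an unadjusted p under 0.05, DESeq2 called 1 higher, and the median was 0.38. The difference between the subunits was not tested.

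Several genes showed little difference with PD-1. Mrpl58, a peptidyl-tRNA hydrolase built into the large subunit, measured 73.2 and 73.2 CPM in 5-day PD-1-, 72.6 and 67.3 in 5-day PD-1+, 46.3 and 56.6 in 10-day PD-1- and 50.2 and 49.2 in 10-day PD-1+ libraries. Its populations overlapped within each age or nearly met, and the log2 fold change was -0.05 with a 95% interval of -0.39 to 0.29. Mrps27, a pentatricopeptide-repeat protein of the small subunit, had 0.04 (-0.45 to 0.53), Mrps35 had -0.09 (-0.48 to 0.30), Mrps17 -0.09 (-0.45 to 0.26), Mrps5 -0.12 (-0.61 to 0.37) and Mrps9 0.15 (-0.19 to 0.50). These intervals leave room for differences of modest size in either direction. Mrps36, with 1.70 to 5.85 CPM, had too few counts for a narrow value (0.58, interval -0.51 to 1.67).

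At 5 days, 23 of the 76 genes were higher in PD-1+ cells and 1, Mrpl9, was lower, against 17.6% higher and 16.7% lower over all genes tested. The median log2 fold change was 0.60, and 13 of the called genes differed by 2-fold or more. With library totals in place of TMM factors the split was 13 higher and 3 lower, at a median over all genes of -0.26. The median of the set was 0.57 without 5-day PD-1- replicate 2 and 0.56 without 5-day PD-1+ replicate 2. Each of these fits called fewer genes higher, both in the set and over all genes tested. At 10 days, 15 genes were higher, against 16.4% of all genes tested, so the share of the set was close to the background there. At 10 days 0 genes were called lower by edgeR or DESeq2 and 1 had an unadjusted p under 0.05 in that direction, against 12.9% of all genes tested called lower. The 10-day median was 0.43, and it was 0.53 without PD-1- replicate 2 and 0.38 without PD-1+ replicate 1. Those fits also called fewer genes higher, both in the set and over all genes tested.

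Called higher at both ages were 11 genes, Mrpl15, Mrpl16, Mrpl17, Mrpl18, Mrpl20, Mrpl32, Mrpl40, Mrpl45, Mrps6, Mrps7 and Mrps18a. Mrps6 had the same size at both, 1.75 ± 0.28 at 5 days and 1.73 ± 0.27 at 10 days. At 5 days alone 12 genes passed the threshold, Mrpl12, Mrpl13, Mrpl19, Mrpl27, Mrpl28, Mrpl37, Mrpl39, Mrps10, Mrps12, Mrps18b, Mrps24 and Mrps25, and at 10 days alone 4 did, Mrpl4, Mrpl36, Mrpl42 and Mrpl50. The shares of all genes tested called at both ages or at 1 age alone were not counted. The difference between the ages was tested as an interaction of PD-1 and age. By edgeR, 0 of the 76 genes had a stronger and 0 a weaker PD-1 difference at 10 days, against 1.2% and 0.923% of all genes tested. DESeq2 also called 0, and 5 genes had an unadjusted p under 0.05, all with a weaker difference at 10 days. The nearest to the threshold were Mrpl12 (-1.31 ± 0.40, edgeR adjusted p = 0.101, range over the alternatives 0.0673 to 0.401) and Mrpl37 (-0.98, edgeR adjusted p = 0.136). In the other direction Mrpl36 (0.60, edgeR adjusted p = 0.452) and Mrps27 (0.57, edgeR adjusted p = 0.589) had the smallest p-values.

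The Mrps18 genes are 3 paralogs of bacterial S18, of which the products of Mrps18b and Mrps18c are built into the small subunit and that of Mrps18a into the large subunit. In the counts by class above, Mrps18c alone was taken as the counterpart of S18. Mrps18a measured 27.5 and 26.7 CPM in 5-day PD-1-, 54.6 and 43.4 in 5-day PD-1+, 14.2 and 17.6 in 10-day PD-1- and 31.7 and 26.7 in 10-day PD-1+ libraries. Mrps18c measured 16.5 and 24.98, 37.1 and 35.8, 8.42 and 10.4, and 16.4 and 15.8 CPM in the same order. Within each age both had their PD-1+ libraries above their PD-1- libraries, though Mrps18c was called at neither age taken alone. Over both ages they were called higher, by 0.87 ± 0.21 and 0.81 ± 0.24 (edgeR adjusted p = 0.0038 and 0.0152). The call of Mrps18c was lost in 1 of 14 alternatives. Mrps18b measured 15.6 and 10.8, 33.5 and 30.1, 14.6 and 11.7, and 13.2 and 10.2 CPM. It was higher in PD-1+ cells at 5 days (1.24 ± 0.36, edgeR adjusted p = 0.0131, the call lost without PD-1- replicate 3 or PD-1+ replicate 2), while at 10 days the libraries overlapped (-0.19 ± 0.37). The interaction for Mrps18b was not called (-1.43 ± 0.52, edgeR adjusted p = 0.178), and its exons overlap those of an antisense gene by 638 bases.

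With age, transcripts of the set were lower at 10 than at 5 days. Over both populations 0 genes were higher and 11 lower, against 2.3% and 2.58% of all genes tested, with a median log2 fold change of -0.46 against 0.02 for all genes. At an unadjusted p under 0.05, 0 genes were higher and 32 lower, and DESeq2 called 0 and 11. The genes called lower were Mrpl18, Mrpl20, Mrpl30, Mrpl35, Mrpl54, Mrps14, Mrps17, Mrps18a, Mrps18c, Mrps22 and Mrps24. The clearest was Mrps14, the small-subunit counterpart of bacterial S14. It measured 85.9 and 90.9 CPM in 5-day PD-1-, 99.3 and 108 in 5-day PD-1+, 42.1 and 42.9 in 10-day PD-1- and 55.9 and 59.7 in 10-day PD-1+ libraries. Every 10-day library was below every 5-day library (-0.95 ± 0.15, edgeR adjusted p = 0.00621). Mrpl54 (-1.12 ± 0.21), Mrpl20 (-0.92 ± 0.18) and Mrpl18 (-0.68 ± 0.14) were lower as well. The age calls of Mrps14, Mrpl54, Mrpl20 and Mrpl18 were lost in 1, 2, 3 and 4 of 14 alternatives. Tcp1, which shares exon bases with Mrpl18, was also lower (-0.60 ± 0.16, edgeR adjusted p = 0.0431). In PD-1+ cells taken alone Tcp1 was at -0.96 ± 0.15 (edgeR adjusted p = 0.000594). The part of shared reads in the age values of Mrpl18 was not tested. The median of the set was -0.40 without 5-day PD-1+ replicate 2, -0.41 without 10-day PD-1+ replicate 2 and -0.48 without 5-day PD-1+ replicate 3. It was -0.44 without 10-day PD-1- replicate 1 and -0.46 without 10-day PD-1+ replicate 1. Without both 5-day libraries numbered 3, those with Y-linked transcripts, it was -0.50. Each of these fits leaves 1 library in a group and called fewer genes lower, both in the set and over all genes tested.

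In PD-1+ cells taken alone, 13 genes were lower at 10 than at 5 days, against 6.98% of all genes tested, and 0 were higher, against 7.39%. DESeq2 called 10 lower and 0 higher, and at an unadjusted p under 0.05 there were 33 and 0. The median log2 fold change was -0.54, against 0.05 for all genes. The genes called lower were Mrpl12, Mrpl18, Mrpl20, Mrpl27, Mrpl40, Mrpl54, Mrps10, Mrps14, Mrps18b, Mrps18c, Mrps22, Mrps24 and Mrps28. Mrps22, a small-subunit protein with no bacterial counterpart, measured 60.7 and 43.0 CPM at 5 days and 22.8 and 18.3 CPM at 10 days (-1.33 ± 0.31, edgeR adjusted p = 0.00843). Mrps10 measured 41.7 and 37.2 CPM and then 15.3 and 16.2 CPM (-1.32 ± 0.31, edgeR adjusted p = 0.00878). In both genes the ages did not overlap. Mrpl12 was lower by the values given above (-1.31 ± 0.27, edgeR adjusted p = 0.00363). The median of the set was -0.42 without 5-day PD-1+ replicate 2 and -0.64 without 5-day PD-1+ replicate 3. It was -0.51 without 10-day PD-1+ replicate 2 and -0.56 without 10-day PD-1+ replicate 1. Without both 5-day libraries numbered 3 it was -0.64. Each of these fits leaves 1 library in a group and called fewer genes lower, both in the set and over all genes tested.

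Counted by separation, 56 of the 76 genes had both 10-day PD-1+ libraries below both 5-day PD-1+ libraries, where 27.2% of all genes tested did. The opposite order held for 3 of the 76 genes and for 31.3% of all genes tested. The 8 genes that were both higher with PD-1 over both ages and lower with age in PD-1+ cells were Mrpl12, Mrpl18, Mrpl20, Mrpl27, Mrpl40, Mrpl54, Mrps18c and Mrps24. Both comparisons use the 5-day PD-1+ libraries. The share of all genes tested with both calls was not counted, so the 8 are a list and not an excess.

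In PD-1- cells, the edgeR test called 1 gene lower at 10 days, Mrps14 (-1.05 ± 0.21, adjusted p = 0.0408), against 0.122% of all genes tested, and 0 higher, against 0.148%. That call was lost when any 1 of the 4 PD-1- libraries or either 5-day PD-1+ library was left out, and with upper-quartile or library-total scaling (adjusted p over the alternatives 0.00516 to 0.402). At an unadjusted p under 0.05, 17 genes were lower and 0 higher, and DESeq2 called 1 and 0. The median log2 fold change of -0.38 had the same sign as in PD-1+ cells. Mrpl12, Mrpl40 and Mrps18b, which were lower with age in PD-1+ cells, were close to 0 in PD-1- cells (95% intervals of -0.62 to 0.62, -0.53 to 0.64 and -0.80 to 0.78). The interactions of Mrpl12 and Mrps18b given above, and that of Mrpl40 (-0.95, edgeR adjusted p = 0.213), did not pass the test.

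**Figure D3:**
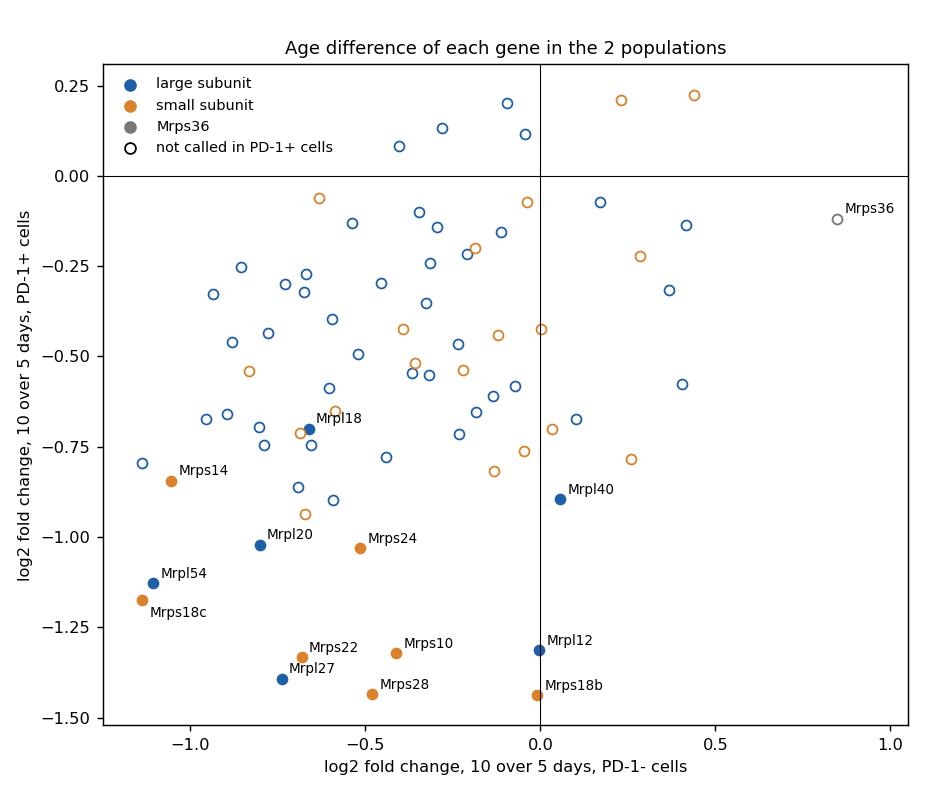
Log2 fold change of 10 over 5 days in PD-1- cells (x axis) and in PD-1+ cells (y axis), 1 point per gene, filled where the PD-1+ value passed the threshold. Most of the 76 points lie below 0 on both axes, and the 13 named filled points reach -1.44 in PD-1+ cells, while Mrpl12, Mrpl40 and Mrps18b lie near 0 on the x axis.

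Summed over the 76 genes, the level was 2740 and 2911 CPM in 5-day PD-1-, 4353 and 3865 CPM in 5-day PD-1+, 2186 and 2290 CPM in 10-day PD-1- and 3016 and 2801 CPM in 10-day PD-1+ libraries. The 5-day PD-1+ libraries were highest and the 10-day PD-1- libraries lowest, and the 10-day PD-1+ libraries came near the 5-day PD-1- libraries. As a share of all counts the set took 0.264 ± 0.031% in PD-1- and 0.327 ± 0.044% in PD-1+ libraries (SD, n = 4). Within the set, each gene's log2 level was correlated with the mean of the others over the 8 libraries, which form 4 groups and share their scaling factors. The median Pearson r was 0.82, 59 genes were above 0.5 and 4 were below 0. Mrpl18 (r = 0.99), Mrps18a (0.98) and Mrps12 (0.97) followed the mean of the rest most closely, and Mrpl24 (-0.76), Mrpl9 (-0.70), Mrpl38 (-0.27) and Mrps31 (-0.07) ran against it.

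**Figure D4:**
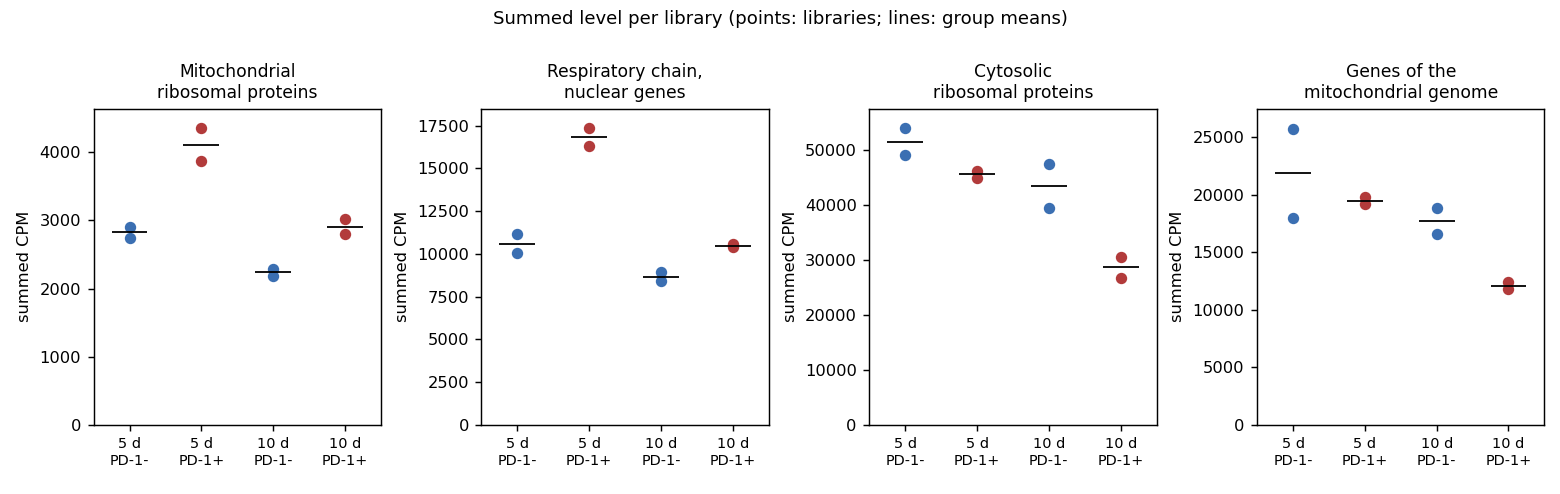
Summed CPM (y axis, from 0) per library, by age and population (x axis), for the 76 genes, for nuclear genes of the respiratory chain, for cytosolic ribosomal protein genes and for genes of the mitochondrial genome, with points for libraries and lines for group means. The first 2 sets are highest in 5-day PD-1+ libraries, at 4353 and 3865 CPM for the 76 genes, while the last 2 are lowest in 10-day PD-1+ libraries.

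Outside the set, the genes whose log2 level over the 8 libraries was most like its mean were Atp5f1 (r = 0.993), Atp5g3 (0.988), Psmc4 (0.988), Ndufs8 (0.987) and Psma2 (0.987). Atp5f1 and Atp5g3 encode subunits of ATP synthase, Ndufs8 a subunit of respiratory complex I, and Psmc4 and Psma2 subunits of the proteasome. Psma2 starts 75 bases from Mrpl32 on the opposite strand. Another protein-coding gene began within 1000 bases, facing away, at 18 of the 76 genes (23.7%), against 11.5% of the 10090 protein-coding genes tested. The pairs included Mrps12 with the mitochondrial seryl-tRNA synthetase gene Sars2 (172 bases), Mrpl40 with Hira (175), Mrpl49 with Fau (59) and Mrps18b with Ppp1r10 (45).

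The sequences around the starts of the genes were searched for the cores of factors known for nuclear genes of mitochondrial proteins, because many members moved together. RefSeq promoter sequence on GRCm38.p6, from 250 bases before to 50 after the start, was matched for 67 of the 76 genes. Searched on both strands were the GABPA/ETS core ccggaagt, the NRF1 core gcatgcgc, the YY1 core aagatggc and the E-box cacgtg that Myc and Max bind. The ETS core was in 11 of the 67 windows (16.4%, against 9.59% of tested genes and 4.0% of all genes of the table with a window). The NRF1 core was in 8 (11.9%, against 6.04% and 2.80%). The YY1 core was in 12 (17.9%, against 5.43% and 2.88%), and the E-box in 5 (7.46%, against 10.7% and 7.24%). Among genes called higher with PD-1, 8 of 27 windows held the YY1 core, 4 the ETS core, 3 the NRF1 core and 3 the E-box. Among the other genes of the set 4, 7, 5 and 2 of 40 did, in the same order. The same split was not counted over all genes tested, so it has no background, and a link between a core and the PD-1 call was not tested. The numbers given here count letters in a window and not bound sites.

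In 8 genes the YY1 core lay on the coding strand within 50 bases after the start, at positions 12 to 37, which is 11.9% of the 67 windows, against 2.60% of those of tested genes and 0.958% of those of all genes. In 6 of these 8 the core contains the annotated start codon of the gene in GENCODE M21. The 8 genes are shown because they were picked for that strand and stretch, so their shared place follows from the choice. In Mrpl36, Mrps11, Mrps12 and Mrpl32 the core lay on the other strand, at positions -30, -107, -199 and -242. The core is in capitals, each window has 30 bases and is written 5′ to 3′ on the gene's own strand.
Mrps18a, chr17:46111004-46111033, plus strand: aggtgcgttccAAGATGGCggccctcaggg
Mrps7, chr11:115604147-115604176, plus strand: tgacagcggccAAGATGGCtgcccccgcgc
Mrpl35, chr6:71823743-71823772, minus strand: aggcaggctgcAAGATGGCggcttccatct
Mrpl42, chr10:95501904-95501933, minus strand: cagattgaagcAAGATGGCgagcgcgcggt
Mrps24, chr11:5707652-5707681, minus strand: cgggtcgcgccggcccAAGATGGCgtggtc
Mrps27, chr13:99344789-99344818, plus strand: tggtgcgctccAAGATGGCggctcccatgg
Mrpl49, chr19:6057721-6057750, minus strand: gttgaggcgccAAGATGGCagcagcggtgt
Mrpl37, chr4:107066822-107066851, minus strand: ctgcacgggcaAAGATGGCggcgtccaggt
The first 5 of these genes were called higher in PD-1+ cells and the last 3 were not, and in Mrpl37 and Mrpl42 the letters do not coincide with an annotated start codon.

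The NRF1 core, which is nearly its own reverse complement, is shown for a gene that was higher with PD-1, a gene with 4 matches on either strand, of which the nearest to the start is printed, and a gene that was lower.
Mrpl17, chr7:105811080-105811109, minus strand: gccgagttactGCGCATGCgtcctctgaga
Mrpl32, chr13:14613041-14613070, minus strand: gcggacttaacGCATGCGCtcagcccgcgt
Mrpl9, chr3:94443299-94443328, plus strand: ggcgcagctgcGCATGCGCggggtccttct
Capitals mark the core on either strand. Mrpl17 and Mrpl9 both have it within 30 bases before the start and differed with PD-1 in opposite directions. The ETS core is shown for Mrpl27 and Mrpl18, which were higher with PD-1 and lower with age in PD-1+ cells.
Mrpl27, chr11:94653725-94653754, plus strand: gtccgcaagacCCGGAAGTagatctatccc
Mrpl18, chr17:12916312-12916341, minus strand: actgaaaacgCCGGAAGTagggggctgcgg

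The genes of the factors themselves differed with PD-1 in both directions. Of 12 such genes 10 were tested, and over both ages 2 of them were higher and 1 was lower in PD-1+ cells. Over all genes tested 21.9% were higher and 19.6% lower, so these counts do not stand apart from the background. Yy1 measured 90.7 and 111 CPM in 5-day PD-1-, 55.6 and 53.5 in 5-day PD-1+, 98.4 and 119 in 10-day PD-1- and 60.9 and 59.0 in 10-day PD-1+ libraries. All PD-1+ libraries were below all PD-1- libraries (-0.87 ± 0.15, edgeR adjusted p = 0.000353). Gabpb1 (0.54 ± 0.14, edgeR adjusted p = 0.00783) and Gabpa (0.41 ± 0.15, edgeR adjusted p = 0.0397), the subunits of GABP, were higher, the call of Gabpa being lost in 11 of 14 alternatives (adjusted p 0.0264 to 0.194). Nrf1 (0.24 ± 0.14), Esrra (1.11 ± 0.54), Gabpb2 (-0.02), Max (-0.45 ± 0.22), Pprc1 (0.16 ± 0.29) and Ppargc1b (-0.98 ± 0.41) were not called, and Mycn and Ppargc1a were not tested.

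Myc, a driver of growth and ribosome production in activated T cells, was high in 1 group only. It measured 50.5 and 46.6 CPM in 5-day PD-1-, 159 and 126 CPM in 5-day PD-1+, 52.8 and 44.2 CPM in 10-day PD-1- and 42.7 and 40.1 CPM in 10-day PD-1+ libraries. Its PD-1 difference was 1.55 ± 0.22 at 5 days (edgeR adjusted p = 4.56e-05) and -0.24 ± 0.22 at 10 days, and the interaction was called (-1.78 ± 0.31, edgeR adjusted p = 0.00663). Over both ages its difference was not called (0.68 ± 0.33), except with no filter and without 10-day PD-1- replicate 1. The summed level of the 76 genes was highest in the 5-day PD-1+ libraries, and in 10-day PD-1+ cells it was above the 10-day PD-1- level. A link between Myc and these genes was not tested.

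Genes of other proteins of mitochondrial translation had calls in both directions, against 21.9% higher and 19.6% lower over all genes tested. Of 5 mitochondrial ribosome genes with other symbols, Aurkaip1 was higher in PD-1+ cells (0.75 ± 0.17, edgeR adjusted p = 0.00239) and Chchd1 (0.63), Gadd45gip1 (0.64) and Ptcd3 (-0.38) were not called. Of 13 translation factor genes, Tufm (0.60 ± 0.22) and Gfm1 (0.46 ± 0.17), both elongation factors, were higher and Mrrf, the recycling factor, was lower (-0.67 ± 0.23). None of these calls is firm. Over 14 alternatives that of Tufm was lost in 8, that of Gfm1 in 11 and that of Mrrf in 8, and DESeq2 called 0 of the 13. Of 25 genes for assembly and rRNA modification, Ddx28 was higher and Mettl17, Nsun4, Rbfa and Dhx30 were lower. Ddx28, an RNA helicase gene, measured 7.13 and 5.68 CPM in 5-day PD-1-, 26.8 and 29.6 in 5-day PD-1+, 8.42 and 9.11 in 10-day PD-1- and 77.998 and 56.2 in 10-day PD-1+ libraries. It was far higher in every PD-1+ library (2.55 ± 0.26, edgeR adjusted p = 2.53e-06) and also higher at 10 than at 5 days in PD-1+ cells (1.25 ± 0.29, edgeR adjusted p = 0.00884). The age call was lost without 5-day PD-1+ replicate 2 or 3 or 10-day PD-1+ replicate 1 (adjusted p over the alternatives 0.00164 to 0.128).

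Several lists had shares of lower genes near the 19.6% of all genes tested. Of 20 mitochondrial tRNA synthetase genes, 4 were lower in PD-1+ cells, Aars2 (-0.75 ± 0.27), Cars2 (-0.74 ± 0.20), Tars2 (-0.69 ± 0.18) and Wars2 (-0.83 ± 0.28), of which DESeq2 called 2. Over 14 alternatives the call of Aars2 was lost in 7, that of Cars2 in 1, that of Tars2 in 0 and that of Wars2 in 8. Of 15 genes of mitochondrial transcription and RNA processing, 3 were lower, Polrmt (-0.55 ± 0.19), Tfb2m (-0.95 ± 0.32) and Fastkd1 (-1.16 ± 0.39), of which DESeq2 called 0. Their calls were lost in 8, 7 and 9 of 14 alternatives. Polrmt encodes the mitochondrial RNA polymerase and Tfb2m its initiation factor. Neither count stands apart from the background. The messenger RNAs that mitochondrial ribosomes read are encoded by the mitochondrial genome. Of 8 tested messenger RNA genes of the mitochondrial genome, mt-Nd2, mt-Nd4, mt-Nd5, mt-Nd6 and mt-Cytb were lower in PD-1+ cells. The clearest was mt-Nd4, which measured 1267 and 2007 CPM in 5-day PD-1-, 1047 and 1090 in 5-day PD-1+, 1383 and 1463 in 10-day PD-1- and 792 and 805 in 10-day PD-1+ libraries. All PD-1+ libraries were below all PD-1- libraries (-0.72 ± 0.15, edgeR adjusted p = 0.00111). The ribosomal RNA of the mitochondrial genome was not analysed here.

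Nuclear genes of the respiratory chain moved with the mitochondrial ribosomal proteins in both comparisons. Over all genes tested, 21.9% were higher and 19.6% lower with PD-1 (median log2 fold change -0.01). With age in PD-1+ cells 6.98% of all genes were lower (median 0.05). Of 75 respiratory chain genes tested, 39 rose and 3 fell with PD-1 over both ages (median log2 fold change 0.49), and 35 were lower at 10 than at 5 days in PD-1+ cells (median -0.67). Cytosolic ribosomal protein genes took the opposite side with PD-1. Of 84 tested, 53 were lower and 3 higher in PD-1+ cells (median -0.44), while with age in PD-1+ cells 53 of the 84 were lower (median -0.64). Summed, the cytosolic genes held 4.95 ± 0.52% of counts in PD-1- and 3.44 ± 0.68% in PD-1+ libraries (SD, n = 4). Counts of closely related ribosomal protein pseudogenes could be split with their parent genes, since the handling of reads with several matches is not given in the sources used here.

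**Figure D5:**
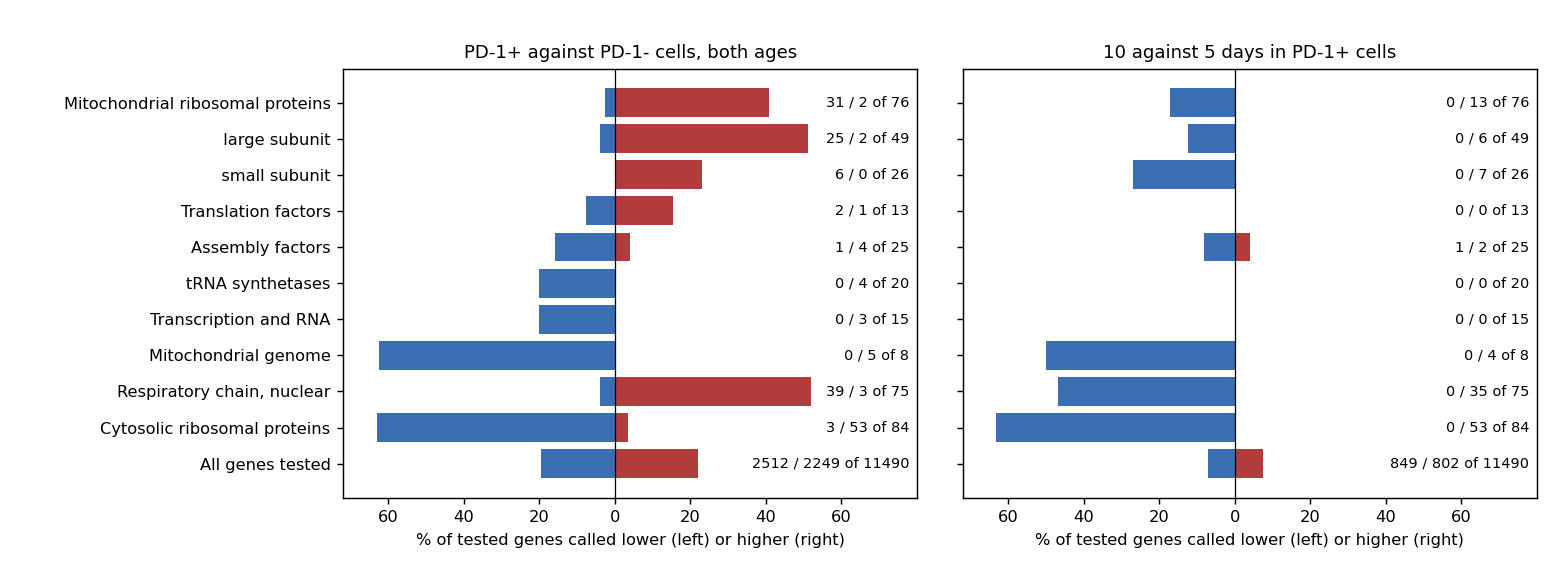
Share of tested genes called higher (red, right) or lower (blue, left) in each gene list, in percent, for PD-1+ against PD-1- cells over both ages and for 10 against 5 days in PD-1+ cells, with counts of higher and lower genes at the right. The mitochondrial ribosomal proteins (31 higher, 2 lower of 76) and nuclear respiratory chain genes (39 and 3 of 75) lie to the right with PD-1, and the cytosolic ribosomal proteins (3 and 53 of 84) to the left. Among all genes tested 21.9% were higher and 19.6% lower with PD-1.

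Overlaps with other genes touch some of these counts. Of the 76 genes, 32 share exon bases with another gene, 27 of them with a gene on the opposite strand, among which are 8 of the 31 genes called higher with PD-1. Mrpl36 shares 30 bases with Ndufs6, which was also higher in PD-1+ cells (0.84 ± 0.27, edgeR adjusted p = 0.023, the call lost without 5-day PD-1- replicate 2 or 10-day PD-1- replicate 1), and Mrpl46 and Mrps11 share 173 bases with each other. Reads from such a stretch cannot be assigned to 1 of the 2 genes without the strand.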

How the data were processed

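Polyadenylated RNA of 1000 sorted cells per library was primed with oligo(dT), amplified and tagmented, per the labels' protocols. The authors deposited whole-number counts per gene symbol for the 8 libraries. Per the submitters' processing notes, the tools were STAR 2.5.4 and featureCounts, with the build mm10. How strand and multiply mapped reads were counted is not given.

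The counts were tested with edgeR 4.0.16 in R 4.3.3 (filterByExpr, TMM scaling, robust quasi-likelihood F tests). Effects over both ages or populations came from a fit with age and PD-1 as terms, and the others from a fit of the 4 groups. P-values were adjusted by Benjamini-Hochberg over all 11490 genes. Standard errors were obtained as the fold change (log2) over √F. CPM use the TMM-scaled total of tested genes, and RPKM divide them by GENCODE M21 exon length. Between replicates of a group, chi-square per degree of freedom was 4.08 to 9.19, so no libraries were merged. Alternatives were other scalings, no filter, DESeq2 1.42.0, a replicate block and leaving out libraries. The code was tested on simulated data.

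The members and gene lists were chosen with earlier results of these data known. Genes were named by a rule: in the PD-1 comparison the 12 largest upward and up to 8 largest downward calls, the 5 smallest p and the 6 nearest 0; up to 4 per direction elsewhere; extremes of level; the Mrps18 paralogs, Mrpl12, Mrps12 and Mrps36; all regulators and up to 4 of each other list. Any others were chosen after their values were seen.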

Additional observations from a re-analysis of the deposited data

Results flagged for a closer look

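Myc, outside the ribosomal protein genes but listed among their possible regulators, had a PD-1 difference that changed between the ages, and the test of that difference passed the threshold. The interaction on the log2 scale was -1.78 ± 0.31 (edgeR adjusted p = 0.00663), and the adjusted p stayed between 0.000116 and 0.0497 over 14 alternatives. Of the 76 ribosomal protein genes, 0 were called in the same test by edgeR and 0 by DESeq2, and 5 had an unadjusted p under 0.05.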

How the results depend on the processing

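Over both ages, genes higher in PD-1+ cells numbered 20 with library totals alone, and genes lower numbered 0 with no filter and 1 with DESeq2. At 5 days, higher genes numbered 13 and lower genes 3 with library totals alone, and lower genes numbered 2 with upper-quartile scaling and 0 with DESeq2. At 10 days, lower genes numbered 1 with upper-quartile scaling and 1 with library totals alone. With both 5-day libraries numbered 3 left out, genes lower with age numbered 0 over both populations and 0 in PD-1- cells. In PD-1- cells they numbered 0 with upper-quartile scaling, 0 with library totals and 2 with no filter.

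With 1 library left out at a time, a lone library being assumed to vary like the other groups, counts ranged from 25 to 29 higher and 0 to 3 lower for PD-1 over both ages, 11 to 24 higher and 0 to 1 lower at 5 days, and 7 to 15 higher at 10 days. Genes lower with age ranged from 2 to 14 over both populations, 0 to 1 in PD-1- cells and 1 to 16 in PD-1+ cells.

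Whether same-numbered PD-1- and PD-1+ libraries came from the same animals is not given in the labels. Their deviations were correlated at r = 0.0938 at 5 days and 0.114 at 10 days, too weakly to pair them by the data, while at 5 days both libraries numbered 3, and neither numbered 2, had Y-linked counts. With a replicate block, the PD-1 counts were 28 higher and 2 lower over both ages, 25 and 1 at 5 days, 15 and 0 at 10 days, and 0 and 0 for the interaction.

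Among single genes close to 0 in the PD-1 comparison over both ages, signs reversed. Mrps27 was at -0.043 with upper-quartile scaling and -0.11 with library totals, Mrps9 at -0.00315 and Pprc1 at -0.000189 with library totals, and Gabpb2 at 0.00594 with no filter. With 1 library left out, log2 fold changes ranged from -0.16 to 0.19 for Mrps27, -0.11 to 0.0056 for Mrpl58, -0.17 to 0.014 for Mrps35, -0.26 to 0.055 for Mrps5, -0.14 to 0.063 for Gabpb2 and -0.043 to 0.51 for Pprc1. Mrps18b at 10 days ranged from -0.38 to 0.00162. With age in PD-1- cells, Mrpl12 and Mrps18b were at 0.00793 and 0.00746 with RLE scaling, 0.0194 and 0.0198 with upper-quartile scaling and 0.0502 and 0.0528 with library totals. Mrpl12 was at 0.000399 with no filter, 0.0191 with DESeq2 and 0.0117 without both 5-day libraries numbered 3, and with 1 library left out the ranges were -0.32 to 0.32 for Mrpl12 and -0.21 to 0.30 for Mrps18b. With 3 to 440 counts of a gene per library and 2 libraries per group, a difference that did not pass the test was not shown to be absent, and the intervals in the text give its limits.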
